A study of Mus musculus with 20 samples.

Results

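The genes described here code for the parts of cilia and microtubules: the dynein motors of the motile axoneme and of the cytoplasm, the intraflagellar transport and Bardet-Biedl proteins, the tektins, and the alpha, beta and gamma tubulins. They were chosen by name in the array annotation, with earlier results of these data known, as every non-control gene name that starts with Dnah, Dnahc, Ift, Bbs or Tekt and a number, with Tuba, Tubb or Tubg and a number, with Dnaic or with Dync, and the gene Wdr16, which fits none of these name patterns. This gave 63 of the 27827 gene names on the array, measured by 128 probes. By role, 24 belong to the motile axoneme, 5 to cytoplasmic dynein 1, 20 to ciliary transport (cytoplasmic dynein 2, intraflagellar transport and Bardet-Biedl genes) and 14 to the tubulins. A current symbol was found for 61 of them, and 17 are listed under an older one (the Dnahc genes are now Dnah, Wdr16 is Cfap52, Tubb2c is Tubb4b and Tubb4 is Tubb4a). The names of the array are kept below.

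Total RNA of whole kidneys of male C57BL/6 mice, 8 to 12 weeks old, was hybridised to 20 arrays, 4 in each of 5 groups. Control mice had neither surgery nor treatment, so that anesthesia and incision are part of what separates them from the injured groups. IRI mice had 45 min of clamping of both renal pedicles and 6 h of reperfusion. IRI+Hemin mice had the same injury 24 h after an intraperitoneal injection of 25 mg/kg of Hemin, an inducer of heme oxygenase 1, and Hemin mice had the injection without the injury. IPC+IRI mice had the same injury 7 days after a preconditioning ischemia of 15 min. No line with a transgene was used, and the labels number the samples of a group without saying that each is a separate animal, so that p-values measure the spread between these samples, which may in part be technical.

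A cilium is built on a core of microtubules, which are polymers of alpha and beta tubulin nucleated by gamma tubulin. Intraflagellar transport trains carry its parts outward on kinesin-2 and back on cytoplasmic dynein 2, the Bardet-Biedl proteins load and sort membrane cargo, and axonemal dyneins and tektins are found in cilia and flagella that beat. Most epithelial cells of the nephron carry a single primary cilium that does not beat and that senses flow, and inherited defects of its transport cause cystic and Bardet-Biedl kidney disease.

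Log2 expression is used below for the log2 of the mean processed signal of a gene's probes divided by the 75th percentile of the array, so that a value of 0 lies at that percentile. Values of different genes come from different probes and are not compared with each other. A gene was tested where at least 3 of 4 arrays of a compared group were well above background, a mark set by the scanner software, and was called higher or lower at a limma adjusted p below 0.05 (Benjamini-Hochberg over all genes of the comparison). Of the 63 genes, 54 were tested in at least 1 comparison and 36 were above background on all 20 arrays. Dnahc3, Dnahc6, Dnahc7a, Dnahc7l, Dnahc8, Dnahc10, Dnahc14 and Tekt3 were above background on no array, and Dnaic2 on 1, so these 9 names have no tested value. The motile axoneme thus lost the most names to the filter. Some calls counted below are of genes that passed the filter only through the group where they are high, with at most 2 arrays of the other group above background, and such a call is no independent support: Dnahc1, Tekt1 and Bbs12 in IRI vs Control, Dnahc1 and Tekt1 in IPC+IRI vs Control, Dnahc11 and Tekt1 in IRI+Hemin vs Control, Dnahc2 and Bbs12 in IPC+IRI vs IRI, Bbs12 in IRI+Hemin vs IRI, and Dnahc1, Dnahc12 and Tekt5 in IPC+IRI vs Hemin.

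Over the whole arrays, between 57.4% and 67.4% of gene names were above background, with the IRI arrays, between 57.4% and 62.1%, all below the Control arrays, between 63.3% and 64.1%, and the part of this gap in the falls of dim genes was not tested. The 75th percentile of the signal ran from 146.7 intensity units in Control replicate 2 to 357.9. The 4 arrays of a group shared 1 slide and no slide held a second group, and the effects of slide and group cannot be told apart. Scans were made on 3 days, and only IRI vs Control and IPC+IRI vs Hemin compare groups of the same scan day. Of the 20 arrays, 19 correlated best with an array of their own group, and Control replicate 2 correlated best with a Hemin array (0.981 against 0.978 in its own group). All 5 proximal tubule markers and both thick limb markers, Umod among them, were above background on every array. In IRI vs Control 2 of the 5 proximal tubule markers were called lower and none higher, with a median log2 fold change of -0.41, and 5 of 6 markers of tubular injury were called higher and none lower, with a median of 4.16, 2 of them (Krt20 and Sprr2f) with 1 of 4 Control arrays above background. The summed level of the proximal tubule list ran from 8.43 to 8.60 in Control and from 8.02 to 8.49 in IRI, and that of the injury list from 6.46 to 7.16 and from 7.97 to 8.27. The part of either list in the changes of the set was not tested. In such bulk RNA, fewer cells of a type and less RNA per cell cannot be told apart.

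In IRI vs Control, which asks what ischemia and reperfusion change, most tested tubulin genes rose and most tested ciliary transport genes fell. Of 12 tubulin genes tested, 9 were called higher and 1, Tubb3, lower, and of 20 ciliary transport genes tested, 12 were called lower and none higher. Of all 17711 genes tested, 17.1% were called higher and 33.9% lower, and of the 48 genes of the set that were tested, 12 (25%) were called higher and 19 (39.6%) lower. Fold changes had a median, in log2, of 0.90 for the tubulins, -0.53 for ciliary transport and -0.65 for the 12 tested genes of the motile axoneme, beside -0.17 for all genes. At 2-fold or more, 7 genes were called higher, beside 5.97% of all genes, and 5 lower, beside 14.3%. Normexp background correction, which adds 50 units to every spot, left 8 genes called higher and 4 lower, and the calls of ciliary transport were then 3 lower and none higher. The median of ciliary transport was then -0.21 and that of the motile axoneme turned to 0.10, and with quantile normalization they were -0.36 and -0.22.

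**Figure D1:**
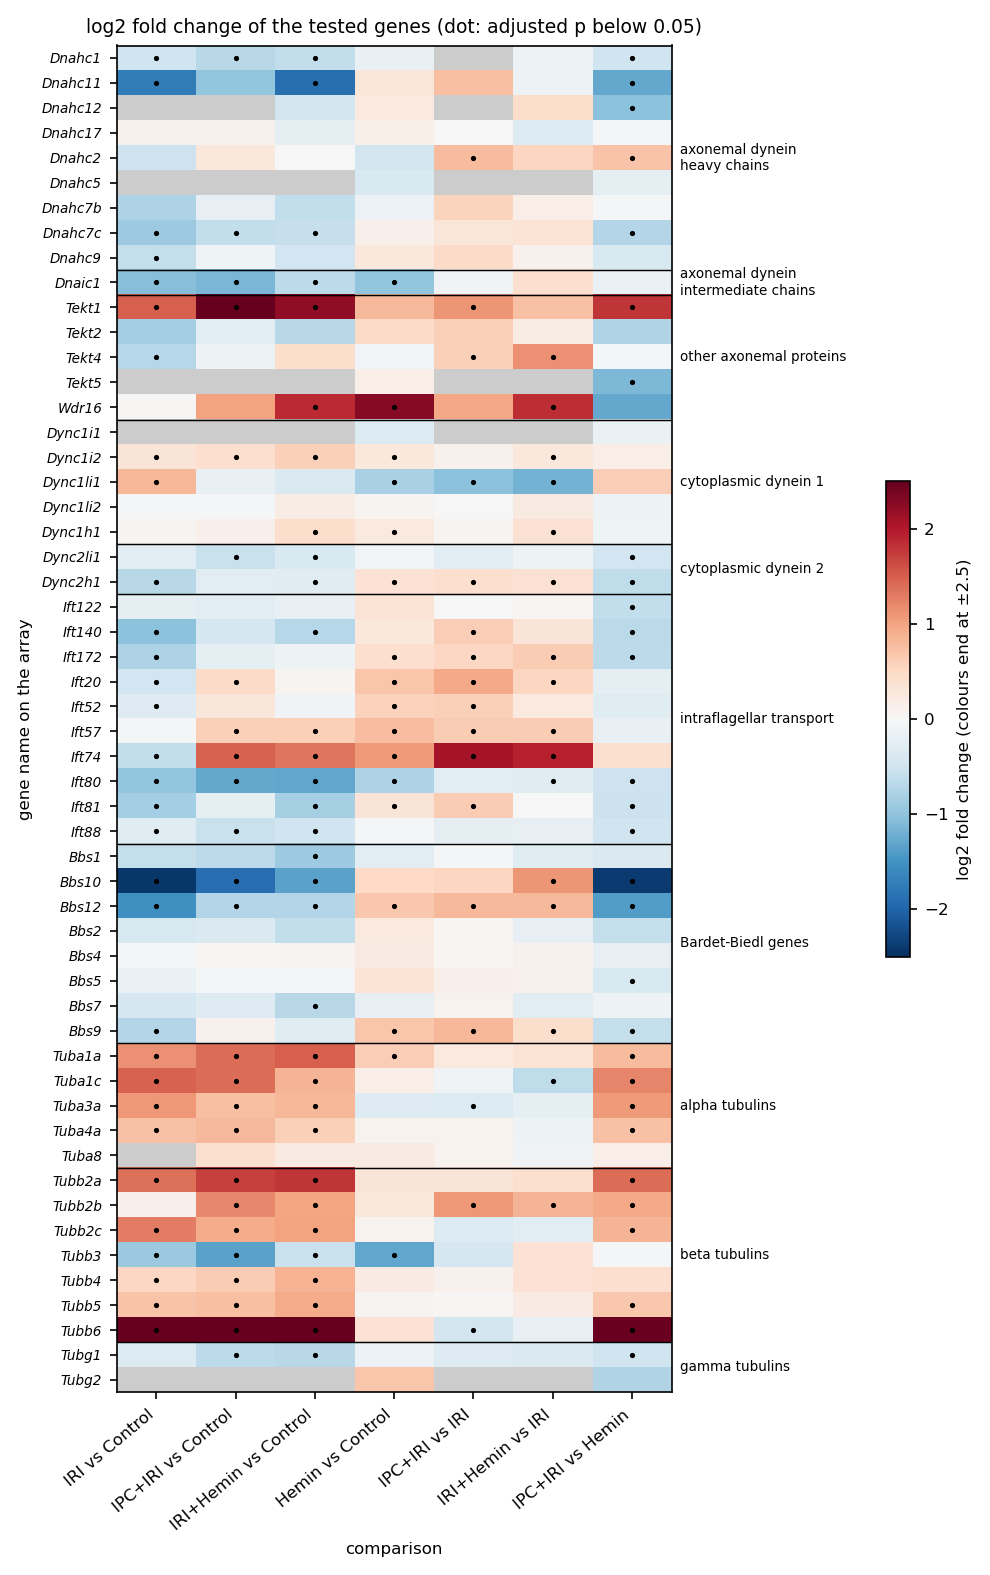
Log2 fold change of each of the 54 tested genes (rows, by role) in 7 comparisons (columns). Red is higher and blue lower in the first-named group, with colours ending at ±2.5, a dot marks an adjusted p below 0.05, and grey marks a gene that was not tested. Most tubulin rows, Tubb3 and Tubg1 excepted, are red in the 3 comparisons of an injured group with Control, where Tubb6 reaches 3.30, and the row of Bbs10 is blue there, down to -2.43.

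Among the tubulins, the largest rise was that of Tubb6, a beta tubulin isotype. Its log2 expression was -0.93, -0.34, -0.71 and -0.54 in the Control arrays and 2.63, 2.73, 2.88 and 2.43 in the IRI arrays. The groups lay far apart, and the log2 fold change was 3.30 (SE 0.18, limma adjusted p = 6.51e-10), or 9.84-fold. For IRI+Hemin the values were 2.40, 2.85, 2.42 and 2.17, for IPC+IRI they were 1.61, 2.51, 2.25 and 2.43, and for Hemin -0.21, -0.46, -0.18 and -0.22. All 12 injured arrays were thus above all 8 uninjured ones. The change came from 1 of the gene's 2 probes: the probe at chr18:67562310-67562369 (mm9), made for the Tubb6 transcript, rose by 3.63 in IRI, while the probe at chr18:67560678-67560737, which the annotation places on the opposite strand and pairs with a cDNA clone, fell by 1.15. The values above average both probes.

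**Figure D2:**
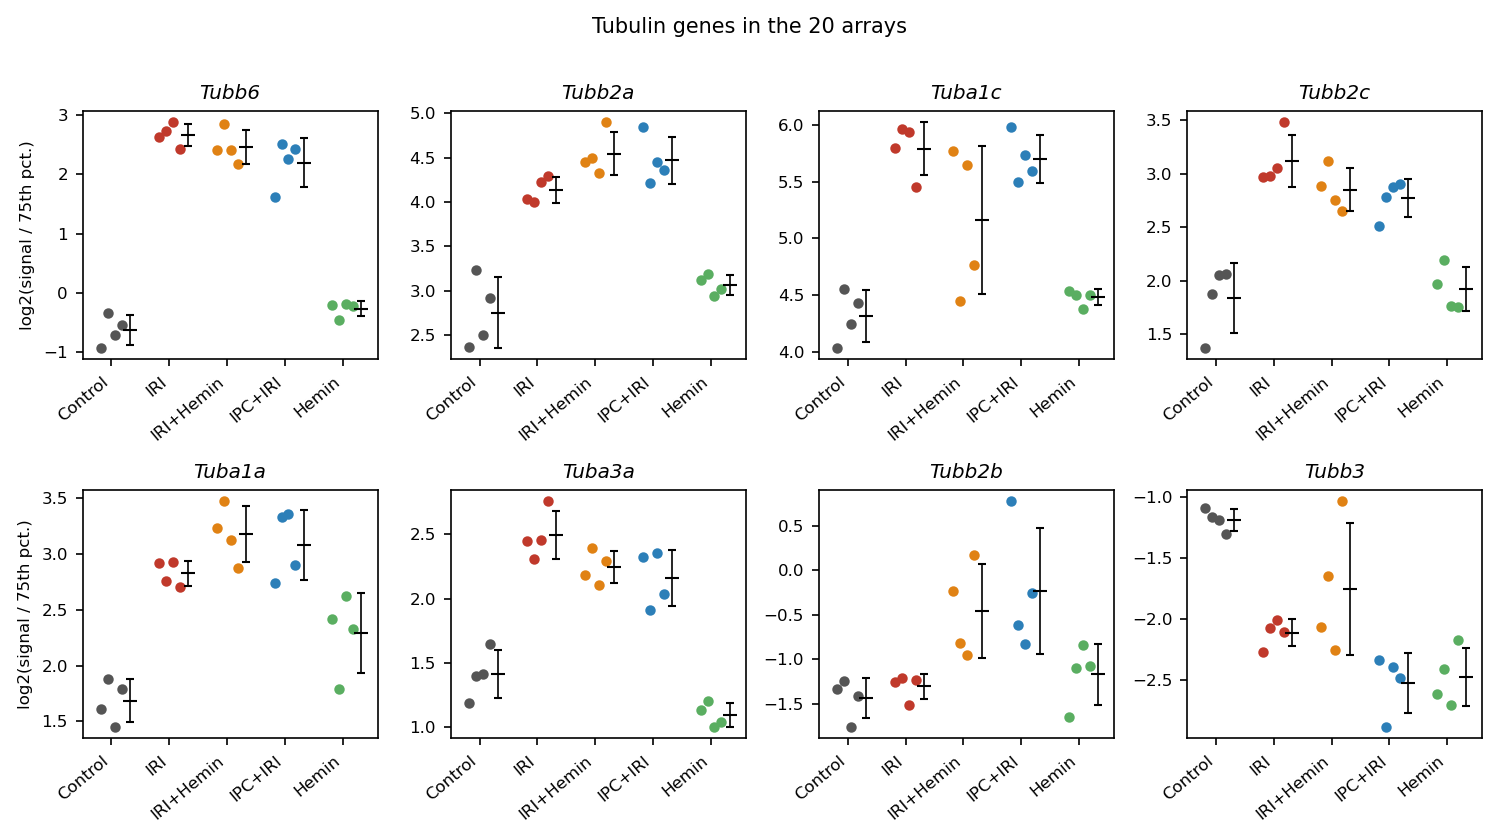
Log2 expression (signal over the 75th percentile of the array) of 8 tubulin genes in each of the 20 arrays. Points are arrays, the bar beside each group is the mean with its SD over 4 arrays, and all points are above background. In Tubb6, all 12 arrays of IRI, IRI+Hemin and IPC+IRI lie at 1.61 or above and all 8 arrays of Control and Hemin at -0.18 or below, and Tubb2b in IRI, between -1.52 and -1.21, stays at the level of Control.

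Other tubulins rose by smaller amounts. Tubb2a, another beta tubulin, lay at 2.36, 3.23, 2.496 and 2.92 in Control and at 4.04, 3.99, 4.23 and 4.30 in IRI (log2 fold change 1.39, SE 0.18, limma adjusted p = 5.84e-06), with all 3 of its probes higher by between 0.98 and 1.84. The alpha tubulin Tuba1c lay at 4.03, 4.55, 4.25 and 4.43 in Control and at 5.79, 5.97, 5.93 and 5.46 in IRI (1.47, SE 0.23), but in the log2 matrix it differed by 0.41 and was not called (limma adjusted p = 0.761). Tubb2c rose by 1.28 (SE 0.17), and the alpha tubulins Tuba1a and Tuba3a rose by 1.14 (SE 0.18) and 1.08 (SE 0.13). In each of these the 4 IRI arrays lay above the 4 Control arrays. For Tuba3a the 2 probes moved apart, by 1.11 and by -1.17, and the mean of the log2 values over both was -0.03, so that the direction of this gene rests on the brighter probe. Tubulin genes are close copies of each other, and both Tuba3a probes are listed for a second transcript as well, so a probe may have read more than 1 of them.

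Among the tubulins that did not rise, Tubb3, the isotype known from neurons, fell. It lay at -1.09, -1.16, -1.18 and -1.30 in Control and at -2.27, -2.07, -2.01 and -2.10 in IRI (log2 fold change -0.93, SE 0.20, limma adjusted p = 0.000876), without overlap. Of the neuron markers, Snap25, Gap43 and Th were above background on no array, 1 of 8 (Uchl1) was tested and was higher in IRI, and the summed level of the list was between -0.92 and -0.27 in Control and between 0.51 and 1.05 in IRI; their part in the result was not tested. Tubg1, the gamma tubulin of the nucleating complex, lay at 1.37, 1.18, 1.22 and 1.35 in Control and at 0.92, 0.95, 1.04 and 0.88 in IRI, without overlap, but its log2 fold change of -0.33 (95% interval -0.68 to 0.01) did not pass the test (limma adjusted p = 0.101). Tubb2b differed by 0.13 (95% interval -0.48 to 0.74, limma adjusted p = 0.735).

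Of 9 leukocyte markers on the array, 7 were tested in IRI vs Control, with a median log2 fold change of 0.005. Of these, 3 (S100a8, S100a9 and Cd68) were called higher and 1 (Cd79a) lower, beside 17.1% and 33.9% of all genes. S100a8 was above background on 2 of 4 Control arrays and Cd79a on 1 of 4 IRI arrays, so these 2 calls are no independent support. The summed log2 level of the markers ran from 1.45 to 2.20 over the Control arrays and from 2.41 to 3.54 over the IRI arrays. It ran from 2.78 to 3.99 with IRI+Hemin, from 3.45 to 5.25 with IPC+IRI and from 1.74 to 2.43 with Hemin. Ptprc, the leukocyte surface marker CD45, had a mean of -2.87 in Control and -2.86 in IRI. Of 10 proliferation markers, 7 were tested and 2 were lower in IRI, with a summed level between 0.95 and 1.47 in Control and between 0.21 and 0.76 in IRI. The part of either list in the rise of the tubulins was not tested.

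Of the ciliary transport genes, the largest differences were those of Bbs10 and Bbs12, which code for chaperonin-like proteins that assemble the Bardet-Biedl cargo complex. Bbs10 lay at -1.60, -1.42, -2.44 and -1.69 in Control and at -3.72, -4.46, -4.75 and -3.95 in IRI. The 4 IRI arrays were below all Control arrays, with 1 of them not above background, and the log2 fold change was -2.43 (SE 0.24, limma adjusted p = 4.32e-07), or 5.40-fold lower. Both probes of Bbs10, which overlap on the transcript, fell, by 2.37 and 2.55. Bbs12 lay at -2.69, -2.88, -3.11 and -2.90 in Control and at -4.78, -3.99, -4.99 and -3.97 in IRI, where 2 arrays were not above background (log2 fold change -1.54, SE 0.22, given as a description, since the gene entered the test only through the Control arrays). Both genes are dim, and with normexp background correction they differed by -0.46 and -0.11 and were not called. Bbs9, a subunit of the complex itself, was lower by 0.74 (SE 0.16), while Bbs4, another subunit, differed by -0.03 (95% interval -0.24 to 0.19).

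Of 10 intraflagellar transport genes tested, 8 were lower, with a median of -0.54, and of 8 Bardet-Biedl genes 3 were lower, with a median of -0.50. The share of all genes called lower was 33.9%, near that of the Bardet-Biedl genes. Bbs12, 1 of these 3, entered the test only through the Control arrays. Among the transport genes called was Ift140, a subunit of the complex that carries cargo back to the cell body. Ift140 lay at -1.65, -1.75, -1.71 and -1.66 in Control and at -2.88, -2.55, -2.84 and -2.58 in IRI, without overlap (log2 fold change -1.02, SE 0.19, limma adjusted p = 0.000277), and 2 probes fell alike, by 1.03 and 1.07. With normexp background correction its log2 fold change was -0.23, and in the log2 matrix, where blank values leave out some probes on some arrays, it was -0.03, and neither was called. Ift80 and Ift81, subunits of the outward-moving complex, fell by 0.99 (SE 0.12) and 0.85 (SE 0.12). The members without a call were Ift57, which differed by -0.03 (95% interval -0.26 to 0.20, limma adjusted p = 0.826), and Ift122, which differed by -0.25 (95% interval -0.59 to 0.09, limma adjusted p = 0.212). Of the motor of the return path, the heavy chain gene Dync2h1 was called lower (-0.69, SE 0.12), and the light intermediate chain gene Dync2li1 differed by -0.27 without a call (limma adjusted p = 0.0585).

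**Figure D3:**
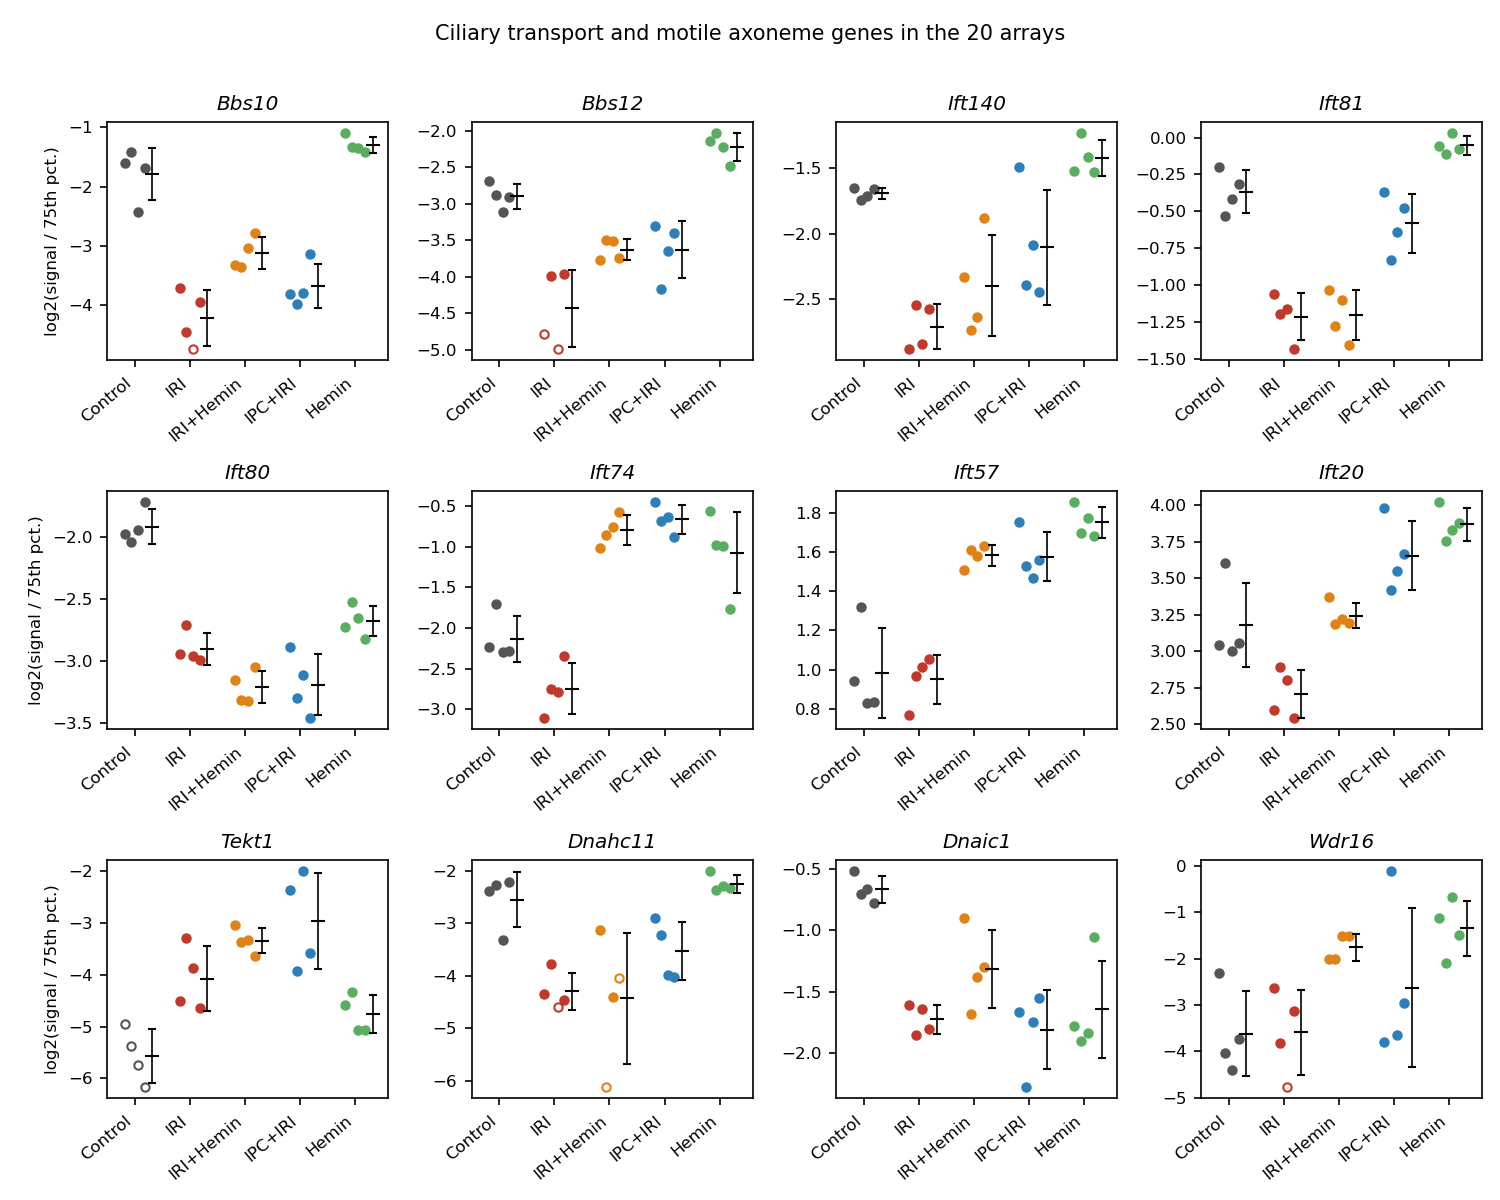
Log2 expression (signal over the 75th percentile of the array) of 8 ciliary transport genes and 4 genes of the motile axoneme in each of the 20 arrays. Points are arrays, open where the gene was not above background, and the bar beside each group is the mean with its SD over 4 arrays. Bbs10 in the 3 injured groups, at -2.78 or below, lies under Control and Hemin, at -2.44 or above, while Ift74 in IRI+Hemin and IPC+IRI, at -1.01 or above, lies over both Control and IRI, at -1.71 or below.

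Promoters are shown for 4 genes because RFX factors, which bind the X-box motif, are known regulators of ciliary genes, and because these 4 carry such a motif and moved in different ways in IRI. Promoters from 250 bases before to 50 after the start were taken from RefSeq (GRCm38.p6) and matched 53 of the 63 genes under 52 current symbols. Searched on both strands, the short motif GTTGCC was found in 8 of 16 ciliary transport genes (50%), 7 of 21 motile axoneme genes (33.3%), 2 of 4 cytoplasmic dynein 1 genes (50%), 2 of 11 tubulin genes (18.2%) and 14.1% of 27025 genes with a promoter. A paired motif, GTNNCC followed after any 2 bases by GGNAAC, which can contain the short one, was found in 4 of 16 (25%), namely Bbs1, Bbs4, Bbs7 and Ift57, in 1 of 21 (4.76%), Tekt4, in 0 of 4 cytoplasmic dynein 1 and 0 of 11 tubulin genes, and in 1.49% of all genes. With 1 more base between its parts, the paired motif was found in 0 of 16, 0 of 21, 0 of 4 and 0 of 11, and in 0.296% of all genes. CCAAT, a motif of general promoters, was found in 10 of 16 (62.5%), 7 of 21 (33.3%), 0 of 4, 6 of 11 (54.5%) and 41.1%, in the same order. The lines give the 250 bases before the start, 5′ to 3′ on the strand of the gene, with either RFX motif in capitals: Ift57 at chr16:49699044-49699293 (plus strand), Ift140 at chr17:25015836-25016085 (plus strand), Tekt4 at chr17:25471340-25471589 (plus strand) and Tekt1 at chr11:72361883-72362132 (minus strand).
Ift57: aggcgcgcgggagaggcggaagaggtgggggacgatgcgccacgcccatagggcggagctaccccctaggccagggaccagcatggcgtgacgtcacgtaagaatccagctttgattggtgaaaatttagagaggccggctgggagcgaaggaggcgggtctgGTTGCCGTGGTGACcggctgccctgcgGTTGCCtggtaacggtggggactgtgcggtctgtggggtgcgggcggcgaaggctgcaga
Ift140: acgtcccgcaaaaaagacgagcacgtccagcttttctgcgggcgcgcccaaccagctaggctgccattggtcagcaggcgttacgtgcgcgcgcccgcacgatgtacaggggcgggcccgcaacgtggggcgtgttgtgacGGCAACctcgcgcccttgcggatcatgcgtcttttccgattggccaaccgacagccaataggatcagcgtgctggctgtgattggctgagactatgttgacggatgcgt
Tekt4: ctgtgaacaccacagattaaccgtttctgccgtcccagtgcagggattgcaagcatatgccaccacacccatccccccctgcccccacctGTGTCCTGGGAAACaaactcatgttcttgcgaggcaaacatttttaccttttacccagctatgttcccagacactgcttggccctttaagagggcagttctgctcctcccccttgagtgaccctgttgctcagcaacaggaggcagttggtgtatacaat
Tekt1: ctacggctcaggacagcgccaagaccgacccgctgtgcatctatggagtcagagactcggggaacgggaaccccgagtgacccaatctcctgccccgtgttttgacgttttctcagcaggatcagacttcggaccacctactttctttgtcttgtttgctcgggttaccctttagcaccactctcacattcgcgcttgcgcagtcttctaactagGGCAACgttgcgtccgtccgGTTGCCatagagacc

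Ift57, with the paired motif and a second short motif, was not called in IRI vs Control, Ift140, with 1 short motif, fell by 1.02, Tekt4, with the paired motif in the lines above and a short motif after the start, fell by 0.71 (SE 0.22), and Tekt1, with 2 short motifs, rose. A motif in these letters is a description of the promoter and not a binding site, and no binding was measured.

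In the motile axoneme, most tested genes were dim and 6 of 12 were called lower in IRI, beside 33.9% of all genes. Of these 6, Dnahc1 was above background on no IRI array. Dnahc11, an outer arm dynein heavy chain, lay at -2.38, -2.27, -3.32 and -2.22 in Control and at -4.34, -3.78, -4.59 and -4.46 in IRI (log2 fold change -1.75, SE 0.44, limma adjusted p = 0.0031), without overlap, and was not called under normexp background correction (-0.26). Dnaic1, an intermediate chain of the same arm, lay at -0.51, -0.71, -0.67 and -0.78 in Control and at -1.61, -1.85, -1.64 and -1.81 in IRI (-1.06, SE 0.19, limma adjusted p = 0.000189). Dnahc7c, an inner arm heavy chain, fell by 0.91 (SE 0.15). Tekt1, a tektin of the doublet microtubules, went the other way: it was above background on none of the Control arrays and on all 4 IRI arrays, where it lay at -4.50, -3.28, -3.88 and -4.64, and it was at least 1.54-fold higher in IRI (limma adjusted p = 0.00362). It entered the test only through the IRI arrays, where it is high, so this p is no independent support for the rise. This bound sets the mean of IRI against the lowest signal well above background on each Control array, or the gene's own value where higher.

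Markers of other ciliated cells went in both directions. Of 6 markers of multiciliated cells, Tekt1 among them, 3 were tested in IRI vs Control and 2 were higher. Of the 6, the means of Tppp3 (-3.10 to -1.46), Foxj1 (-4.62 to -3.43) and Tekt1 (-5.56 to -4.07) were higher in IRI than in Control. Those of Rsph1 (-5.76 to -6.58), Ccdc39 (-5.81 to -6.51) and Ccdc113 (-5.68 to -6.49) were lower, with no IRI array above background. The summed log2 level of the 6 ran from -2.32 to -1.55 over the Control arrays and from -1.11 to -0.60 over the IRI arrays. With IRI+Hemin it ran from -0.52 to -0.005, with IPC+IRI from -0.80 to -0.001 and with Hemin from -1.84 to -1.48, and Ccdc39 was above background on no array. Of 7 markers of male germ cells, 4 were tested and 3 were lower in IRI. Prm2, 1 of the 4, entered the test only through the Control arrays, with 1 of 4 IRI arrays above background. The summed level of the germ cell markers was between -0.13 and 0.53 in Control and between -1.24 and -0.63 in IRI, and Sycp3 was above background on no array. The part of these markers in the changes of the axoneme genes was not tested. After normexp background correction 1 gene of the motile axoneme was called lower and none higher, and Tekt1 differed by 0.39 (limma adjusted p = 0.315).

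Cytoplasmic dynein 1 drives traffic along microtubules of the cell body. Of its 4 tested genes, 2 were higher in IRI, beside 17.1% of all genes, and neither normexp background correction nor the unscaled arrays gave any call among them. Dync1li1, a light intermediate chain, lay at 1.02, -0.01, 1.28 and 0.87 in Control and at 1.43, 1.95, 1.76 and 1.35 in IRI (log2 fold change 0.83, SE 0.25, limma adjusted p = 0.00919). Dync1i2, an intermediate chain, rose by 0.32 (SE 0.09), and Dync1h1, the heavy chain, differed by 0.06 (95% interval -0.10 to 0.22).

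In the pretreated injured groups the tubulins were again higher than in Control. IPC+IRI differs from Control by the preconditioning as well as by the later injury, and no group had preconditioning alone. In IPC+IRI vs Control, 10 of 13 tubulin genes were higher and 2 lower, beside 23.3% and 32.7% of all 18342 genes tested. In IRI+Hemin vs Control, which was not among the comparisons of the study, the counts were the same, beside 24.4% and 33.2% of 18483. Over the whole set, 15 of 49 genes were higher and 10 lower in the first and 16 of 50 higher and 16 lower in the second. At 2-fold or more, 7 genes were higher in each (7.97% and 8.35% of all genes), and 4 and 3 were lower (14.1% and 14.4%). The median of the tubulins was 0.82 and 0.88, beside -0.09 and -0.10 for all genes. With the 75th percentile taken over probes above background on all arrays, the first split was 15 higher and 17 lower. Without scaling between arrays, which moves the median of all genes to 0.35 and 0.38, the splits were 19 higher and 4 lower and 19 higher and 3 lower, with quantile normalization the second was 17 and 11, and with normexp background correction the second was 13 and 8.

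Tubb6, Tubb2a and Tuba1a were among the 5 largest rises of both comparisons. Tubb6 rose by 2.83 (SE 0.18) in IPC+IRI and by 3.09 (SE 0.18) in IRI+Hemin, Tubb2a by 1.72 (SE 0.18) and 1.79 (SE 0.18), and Tuba1a by 1.40 (SE 0.18) and 1.49 (SE 0.18). Tubb2b, which had not changed detectably in IRI, was higher in both. It lay at -1.33, -1.24, -1.76 and -1.41 in Control, at -0.23, -0.82, -0.95 and 0.18 in IRI+Hemin and at 0.78, -0.61, -0.82 and -0.25 in IPC+IRI. All 8 arrays of the pretreated injured mice were above the 4 Control arrays and above the 4 IRI arrays (log2 fold change against Control 0.98, SE 0.29, limma adjusted p = 0.00821, and 1.21, SE 0.29, limma adjusted p = 0.00193). Tubg1 was lower in IPC+IRI by 0.65 (SE 0.17) and in IRI+Hemin by 0.70 (SE 0.17). Tubb3 was lower by 1.34 (SE 0.20) in IPC+IRI and by 0.57 (SE 0.20) in IRI+Hemin.

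Of 20 ciliary transport genes, 5 (25%) were lower and 3 (15%) higher in IPC+IRI vs Control, beside 32.7% and 23.3% of all genes, and in IRI+Hemin vs Control 10 (50%) were lower and 2 (10%) higher, beside 33.2% and 24.4%. The count lower in IPC+IRI depended on the processing: it was 11 with the percentile over probes above background, 8 with the mean of log2 over probes and in the log2 matrix, and 2 without scaling, where 5 were higher and the median turned from -0.27 to 0.17. In IRI+Hemin the count lower was 4 with normexp and 2 without scaling, where the median turned from -0.35 to 0.13. Bbs10 was lower by 1.90 (SE 0.24) and 1.34 (SE 0.24), Bbs12 by 0.73 (SE 0.22) in each, and Ift80 by 1.27 (SE 0.12) and 1.29 (SE 0.12), and Ift81 was lower by 0.84 (SE 0.12) in IRI+Hemin. Bbs12 in IPC+IRI was not called with normexp (-0.37), quantile (-0.47) or no normalization (-0.29), nor Ift81 in IRI+Hemin without normalization (-0.35). Ift74, a subunit of the outward-moving complex that binds tubulin together with Ift81, was higher. Its Control arrays lay at -2.23, -1.71, -2.30 and -2.29 and its IRI arrays at -3.11, -2.75, -2.78 and -2.34. The values were -1.01, -0.86, -0.76 and -0.57 with IRI+Hemin, -0.45, -0.69, -0.64 and -0.88 with IPC+IRI, and -0.56, -0.97, -0.996 and -1.76 with Hemin. Its single probe, at chr4:94325234-94325293 (mm9), was above background on all 20 arrays. IRI was thus the lowest group, called 0.61 below Control (SE 0.21), while IPC+IRI and IRI+Hemin were 1.47 (SE 0.21, limma adjusted p = 2.2e-05) and 1.33 (SE 0.21, limma adjusted p = 5.14e-05) above Control. Ift57 was higher by 0.60 (SE 0.11) in both groups.

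In the motile axoneme, Tekt1 was at least 3.33-fold higher than Control in IPC+IRI (limma adjusted p = 2.56e-05) and at least 2.56-fold in IRI+Hemin (limma adjusted p = 0.000107), against Control arrays that were not well above background, and it entered these tests too only through the injured arrays. Under normexp background correction Tekt1 differed by 0.25 and 0.08 and was not called. Wdr16, a protein of the doublet microtubules, was higher by 1.87 (SE 0.66) in IRI+Hemin, a call that was lost without Control replicate 2 (limma adjusted p = 0.0509) or Control replicate 3 (limma adjusted p = 0.0662) and under normexp (0.52). Dnaic1 was lower by 1.15 (SE 0.19) in IPC+IRI, and the mean of Dnahc11 in IRI+Hemin, where 2 of 4 arrays were above background, lay 3.69-fold below that in Control, a description with overlapping arrays. Bbs1, lower by 0.90 (SE 0.32) in IRI+Hemin, was not called without Control replicate 3, Control replicate 4 or IRI+Hemin replicate 4, where the log2 fold changes were -0.80, -0.75 and -0.49, nor under 5 of the other alternatives (-0.90 to -0.42). Of the 6 markers of multiciliated cells, 4 were tested in each of these comparisons and all 4 were higher. The shares of all genes called higher were 23.3% in IPC+IRI vs Control and 24.4% in IRI+Hemin vs Control. Tekt1 is itself 1 of the 4. Tekt1 and Rsph1 were above background on 0 of 4 Control arrays and Foxj1 on 1 of 4. These genes entered only through the injured arrays, so their calls are no independent support. The part of the list in the rise of Tekt1 and Wdr16 was not tested.

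The direct comparisons with IRI ask what each pretreatment changes in the injured kidney. In IPC+IRI vs IRI, 10 of 20 ciliary transport genes were higher and none lower, beside 26.3% higher and 17.9% lower of all 17663 genes tested. In IRI+Hemin vs IRI, 8 of 20 were higher and 1 lower, beside 26.3% and 18.1% of 17831. The medians were 0.46 and 0.17, beside 0.09 and 0.08 for all genes, and under 11 alternatives they ran from -0.02 with normexp to 0.78 unscaled and from -0.015 with the mean of log2 over probes to 0.53 unscaled. Over the whole set, 14 of 48 genes were higher and 3 lower in the first comparison and 13 of 50 higher and 3 lower in the second, of which 3 and 4 were at least 2-fold higher (7.18% and 7.45% of all genes) and 1 each was at least 2-fold lower (4.4% and 5.04%). Under normexp background correction the splits were 5 higher and 2 lower and 9 and 4, with 4 ciliary transport genes higher in each, and without scaling between arrays, which moves the median of all genes to 0.41 and 0.45, they were 17 and 0 and 24 and 0. With quantile normalization the first was 13 and 5.

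Ift74 was the called gene of the set with the largest difference from IRI in both comparisons, by 2.08 (SE 0.21, limma adjusted p = 4.02e-06) in IPC+IRI and by 1.95 (SE 0.21, limma adjusted p = 4.38e-06) in IRI+Hemin. IRI was scanned on another day than either pretreated group, so pretreatment and scan day cannot be told apart here. Ift74 and Ift57 were also called higher in uninjured Hemin against Control, again across scan days. In IPC+IRI vs Hemin, within 1 scan day, Ift74 differed by 0.41 and Ift57 by -0.18, neither called. Ift20, which links the transport complex to the Golgi, lay at 2.60, 2.89, 2.80 and 2.54 in IRI, at 3.98, 3.42, 3.55 and 3.67 in IPC+IRI and at 3.37, 3.19, 3.22 and 3.20 in IRI+Hemin. Both pretreated groups lay above IRI without overlap, by 0.95 (SE 0.14) and 0.54 (SE 0.14), and IPC+IRI was also 0.48 above Control (SE 0.14). Ift57 was higher by 0.63 (SE 0.11) in both, Bbs9 by 0.83 (SE 0.16; not called with normexp, 0.31, or the mean of log2 over probes, 0.17) and 0.44 (SE 0.16), and Bbs12 lay 0.81 above IRI in both, a description only, since it was above background on 2 of 4 IRI arrays. Bbs10 was higher in IRI+Hemin than in IRI by 1.10 (SE 0.24, limma adjusted p = 0.00148), while with normexp background correction it differed by -0.20 (limma adjusted p = 0.462).

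Other genes differed between pretreated and untreated injury in either direction. Dync1li1 was lower by 1.02 (SE 0.25) in IPC+IRI and by 1.19 (SE 0.25) in IRI+Hemin, where its arrays lay at 0.71, 0.56, 0.47 and 0.66 and at 0.82, 0.31, 0.82 and -0.23, all below the IRI arrays, although neither was called without scaling (-0.71 and -0.83). Tubb2b was higher by 1.08 (SE 0.29, limma adjusted p = 0.00623) in IPC+IRI and by 0.85 (SE 0.29, limma adjusted p = 0.0244) in IRI+Hemin, the latter not called without IRI replicate 3, IRI+Hemin replicate 1 or IRI+Hemin replicate 4 (log2 fold changes 0.78, 0.77 and 0.64). Tekt4 was higher by 1.15 (SE 0.22, limma adjusted p = 0.000441) in IRI+Hemin, with arrays at -1.49, -1.33, -1.63 and -0.39 against -2.33, -1.996, -2.45 and -2.64 in IRI. Under normexp Tekt4 differed by 0.23 (limma adjusted p = 0.243), and Tubb2b by 0.59 in IPC+IRI and 0.43 in IRI+Hemin, and none of these was called. The remaining calls among the named genes were close to the threshold and were lost without 4 or more of the 8 arrays in turn: Tekt1 (1.11), Tuba3a (-0.33) and Tubb6 (-0.47) in IPC+IRI vs IRI, and Wdr16 (1.84), Tuba1c (-0.63) and Ift80 (-0.31) in IRI+Hemin vs IRI. In each of these 2 comparisons 1 tubulin gene of 13, Tubb2b, was higher, beside 26.3% of all genes. In IPC+IRI vs IRI 2 tubulin genes were lower and in IRI+Hemin vs IRI 1 was, beside 17.9% and 18.1% of all genes. Of 10 proliferation markers, 8 were tested in IPC+IRI vs IRI and 5 were higher, beside 26.3% of all genes. Top2a and Tpx2 were above background on 0 and 1 of 4 IRI arrays and entered the test only through the IPC+IRI arrays. The summed level of the list was between 0.70 and 2.64 in IPC+IRI and between 0.21 and 0.76 in IRI. The part of these markers in the differences above was not tested.

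Hemin vs Control shows the injection without injury. Of 20 ciliary transport genes, 9 were higher and 1, Ift80, was lower, beside 18.5% higher and 17.6% lower of all 18572 genes tested. Of the whole set, 13 of 54 were higher and 4 lower, and 2 were at least 2-fold higher (2.19% of all genes) and 1 at least 2-fold lower (5.98%). The median of ciliary transport was 0.34, beside 0.06 for all genes. Without Control replicate 3 or Control replicate 4, 8 genes were called higher. With the 75th percentile over probes above background the split was 8 higher and 5 lower, normexp background correction gave 7 higher, and without scaling between arrays, which moves the median of all genes from 0.06 to 0.62, the split was 31 and 1.

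Ift57 lay at 0.94, 1.32, 0.83 and 0.83 in Control and at 1.86, 1.70, 1.77 and 1.69 in Hemin, without overlap (log2 fold change 0.77, SE 0.11, limma adjusted p = 0.000124). Ift20 rose by 0.69 (SE 0.14) and Bbs9 by 0.70 (SE 0.16), and Ift74 by 1.06 (SE 0.21), with Hemin replicate 4 at -1.76 within the range of Control. Bbs9 was not called with the mean of log2 over probes (0.21), nor Ift74 with normexp (0.45). Ift80 lay at -1.97, -2.04, -1.94 and -1.72 in Control and at -2.72, -2.53, -2.65 and -2.82 in Hemin, without overlap (-0.76, SE 0.12, limma adjusted p = 0.000275), and was thus lower than in Control in all 4 other groups. In Hemin vs Control it was not called without scaling (-0.20) or in the log2 matrix (-0.45).

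Wdr16 was on the study's own list of genes raised by Hemin and was named singly in the rule, so its Hemin values are given as a description with no test, although it is 1 of the 13 genes counted as higher. It lay at -2.31, -4.05, -4.40 and -3.74 in Control and at -1.13, -2.09, -0.68 and -1.49 in Hemin (log2 fold change 2.28, SE 0.66), without overlap, but its arrays spread widely in other groups too, from -3.79 to -0.10 in IPC+IRI. After normexp background correction the difference was 0.78. Tubb3 lay at -2.61, -2.41, -2.70 and -2.17 in Hemin and was lower by 1.29 (SE 0.20, limma adjusted p = 0.000215). Dnaic1 lay at -1.78, -1.91, -1.84 and -1.05 and was lower by 0.98 (SE 0.19, limma adjusted p = 0.00105), but was not called without scaling (-0.41). Dync1li1 was lower by 0.81 (SE 0.25, limma adjusted p = 0.0168), a call lost without Control replicate 3, where it was -0.65, under normexp (-0.67) and without scaling (-0.25). Of the tubulins, only Tuba1a was called higher (0.61, SE 0.18), and the difference of Tubb6 was 0.36 (95% interval -0.02 to 0.75, limma adjusted p = 0.131).

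The interaction tests whether the change with injury differs between Hemin-treated and untreated mice, as IRI+Hemin minus Hemin, less IRI minus Control. Of the 54 genes, 3 were called higher and none lower, beside 5.83% and 1.96% of all 19058 genes tested, and 8 had an unadjusted limma p below 0.05. All 3 were at least 2-fold, beside 4.28% of all genes. Tubb3 was lower with injury in untreated mice (-2.11 on average against -1.19 in Control) and higher with injury in Hemin-treated mice (-1.75 against -2.47), an interaction of 1.65 (SE 0.28, limma adjusted p = 0.00172). Dnaic1 gave 1.39 (SE 0.27, limma adjusted p = 0.00443) and Tekt4 1.21 (SE 0.31, limma adjusted p = 0.0214). After normexp background correction none of the 3 was called, with 0.70, 0.75 and 0.36, and without scaling Dnaic1 (1.19) and Tekt4 (1.01) were not. The interaction of Tubb6 was -0.57 and that of Bbs10 was 0.61, neither past the threshold (limma adjusted p = 0.205 and 0.318).

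IPC+IRI vs Hemin was not among the comparisons of the study. It also sets an injured against an uninjured group, within 1 scan day, and it shares no array with IRI vs Control, although preconditioning and Hemin are part of it. In it, 9 of 14 tubulin genes were higher and 1 lower and 12 of 20 ciliary transport genes were lower and none higher, beside 13.2% higher and 22.8% lower of all 18536 genes tested, and over the set 11 of 54 were higher and 18 lower. At 2-fold or more 5 were higher and 5 lower, beside 5.28% and 5.39%. With normexp background correction the split was 8 higher and 7 lower. Tubb6 was higher by 2.47 (SE 0.18), Tekt1 by 1.80 (SE 0.39), Tubb2a by 1.40 (SE 0.18), Tuba1c by 1.22 (SE 0.23) and Tuba3a by 1.06 (SE 0.13). Bbs10 was lower by 2.39 (SE 0.24) and Bbs12 by 1.41 (SE 0.22). Tekt5, above background on all 4 Hemin arrays and on 2 of 4 in IPC+IRI, lay 2.17-fold lower in the latter, a description only, and Dnahc12, above background on all Hemin arrays and no IPC+IRI array, was at least 1.16-fold lower (limma adjusted p = 0.00256), and both entered the test only through the Hemin arrays. Dnahc11 was lower by 1.29 (SE 0.44), a call lost without any of 6 of the 8 arrays (limma adjusted p up to 0.0833). Under normexp Tekt5 (-0.008), Tekt1 (0.55), Bbs12 (-0.45), Dnahc11 (-0.47) and Dnahc12 (0.03, the other direction) were not called, nor Tuba1c in the log2 matrix (0.33).

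Set against each other, the 48 genes of the set that both of these comparisons tested had the same sign in 43 cases (89.6%), beside 79.1% of 17274 genes tested in both. The correlation across these genes was 0.886 (Pearson) and 0.75 (Spearman), beside 0.779 (Pearson) for all genes, as a description over genes that are not independent of each other. Of the 12 genes higher in IRI vs Control and the 11 higher in IPC+IRI vs Hemin, 9 were higher in both, of the 19 and 16 that were lower, 12 were lower in both, and none was called in opposite directions. The matching overlaps over all genes were not counted, so these numbers are a description only. Tekt1 among the 9, and Dnahc1 and Bbs12 among the 12, entered IRI vs Control only through the group where they are high.

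**Figure D4:**
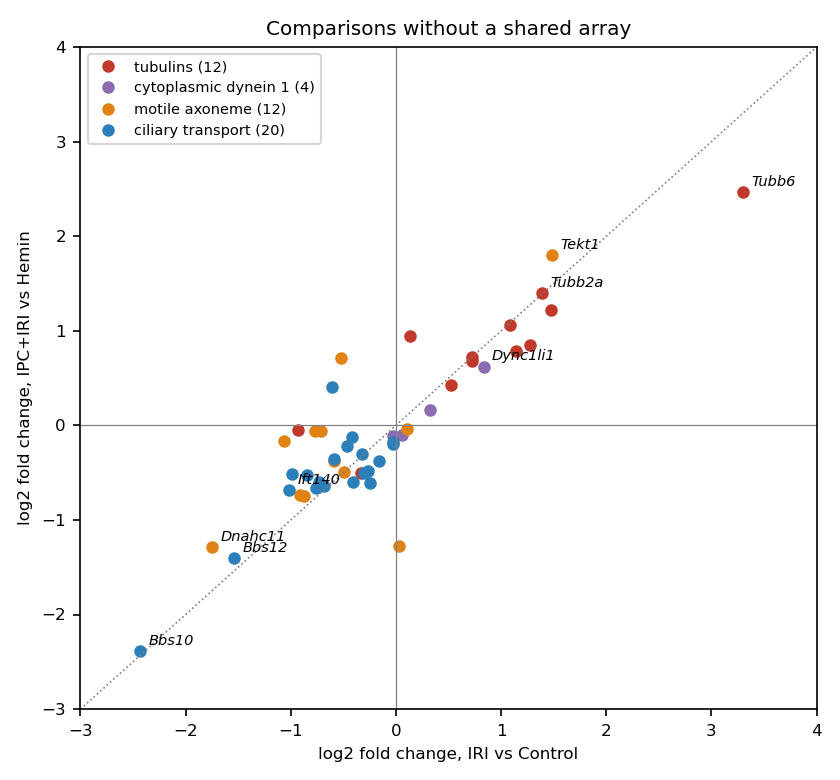
Log2 fold change of the 48 genes tested in both comparisons, IRI vs Control (horizontal) against IPC+IRI vs Hemin (vertical), 1 point per gene, coloured by role, with the line of equal change dotted. Tubb6 lies at 3.30 and 2.47 and Bbs10 at -2.43 and -2.39, and 43 of the 48 points have the same sign on both axes.

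Probes of the same gene mostly moved alike. Of the 20 genes with 2 or more probes above background, 5 had probes of opposite sign in IRI vs Control, and in 2 of them, Tubb6 and Tuba3a, the probes moved by more than 0.5 each way. With the mean of the log2 values over probes in place of the log2 of the mean, Tuba3a turned to -0.03 in IRI vs Control and to 0.23 in IPC+IRI vs IRI, and Tubb6 to 0.11 in IPC+IRI vs IRI. Dync2h1, with 5 of its 9 probes above background, differed by between -1.58 and -0.54 in these 5.

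**Figure D5:**
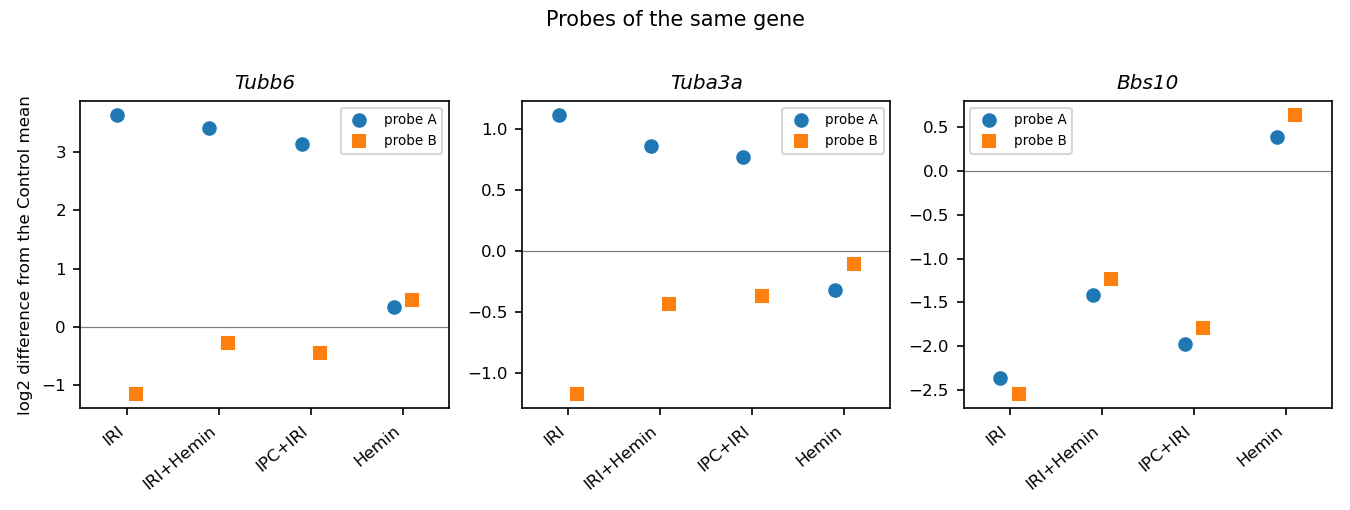
Difference of the mean log2 signal of each probe from its mean in Control, in the other 4 groups, for the 2 probes of Tubb6, Tuba3a and Bbs10. Points are means over 4 arrays of 1 probe. Probe A of Tubb6 rises by 3.63 in IRI while probe B falls by 1.15, the probes of Tuba3a move by 1.11 and -1.17, and both probes of Bbs10 fall, by 2.37 and 2.55.

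Genes of the same pathways under other names were counted by lists, to be read beside the 17.1% of all genes called higher and 33.9% lower in IRI vs Control and the 26.3% and 17.9% in IPC+IRI vs IRI. Of 14 intraflagellar transport and Bardet-Biedl genes under other names, 13 were lower and none higher in IRI vs Control, with a median of -0.71, and 10 were higher and 1 lower in IPC+IRI vs IRI. Under the 11 alternatives the 13 ran from 5 to 13, with medians from -0.81 to -0.34, and the 10 from 1 to 10. Wdr19 and Ttc21b, 2 further subunits of the return complex, were lower in IRI by 1.49 (SE 0.14) and 1.69 (SE 0.17). Of the 4 tested genes of kinesin-2, the outward motor, 3 were lower in IRI (1 to 3 under the alternatives), Kif3c by 1.18 (SE 0.18). Of 27 tested genes of polycystins, nephronophthisis proteins and the transition zone, 19 were lower and 2 higher, and under the alternatives 5 to 21 were lower, with medians from -0.64 to -0.14. Crocc, which codes for rootletin of the ciliary rootlet, was the 1 gene of these lists called with a 4-fold or larger change in IRI vs Control: its mean was 2.29 ± 0.35 (SD, n = 4) for Control and -1.01 ± 0.58 for IRI, and it was 0.05 ± 1.11 with IRI+Hemin, 1.18 ± 1.27 with IPC+IRI and 3.18 ± 0.14 with Hemin (log2 fold change in IRI -3.30, SE 0.53, limma adjusted p = 6.1e-05).

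The tubulin side outside the set did not move as the tubulins did. Of 37 tested genes of tubulin folding, modification and nucleation, 7 were higher and 18 lower in IRI, with a median of -0.28, but under the alternatives 3 to 20 were lower, with medians from -0.36 to -0.002. Tube1, epsilon tubulin of the centriole, was lower by 1.59 (SE 0.22). Of 17 dynactin and LIS1 genes, partners of cytoplasmic dynein, 3 were higher and 3 lower, near or below the shares of all genes, and of 6 dynein light chain genes 2 were lower and none higher. Of 16 tested genes of other axonemal and assembly proteins 11 were lower and none higher, and under the alternatives 1 to 14 were lower, with medians from -0.80 to -0.05. Of 11 tested transcription factors of ciliogenesis 1 was higher and 2 were lower in IRI (0 to 3 higher and 1 to 5 lower under the alternatives). Foxj1, the master factor of motile cilia, had a mean of -4.62 ± 0.82 in Control, with 1 of 4 arrays above background, of -3.43 ± 0.89 in IRI, with 3 above, and, with all 4 above, of -2.44 ± 0.95 in IPC+IRI, -2.74 ± 0.80 in IRI+Hemin and -4.21 ± 0.24 in Hemin, which is given as a description with no test. Rsph1, a radial spoke protein of motile cilia, was above background on none of the Control and IRI arrays, on all 4 arrays of IRI+Hemin and of Hemin and on 3 of IPC+IRI. Wdr19, Ttc21b, Kif3c, Tube1, Foxj1 and Rsph1 were chosen after their values were seen.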

How the data were processed

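The authors deposited the scanner output of each array, whose intensity values are Agilent Feature Extraction processed signals (version 9.5.3.1, per the submitters' processing notes, build mm9 per the file headers), after background subtraction and with no scaling of arrays to each other. A deposited matrix of log2 values of the same signal, with 18.1% blank, was used as an alternative only. Spots marked as uneven or as outliers were removed and saturated spots kept (no spot of these genes was saturated). The mean over spots of a probe was scaled to the 75th percentile of its array (41174 probes), then averaged over the probes that carry the same gene name, and the log2 was taken. A gene was tested with at most 1 missing value over the compared arrays and at least 3 of 4 arrays well above background in a compared group. limma 3.58.1 (R 4.3.3) was fitted on all 20 arrays with 5 group means and 15 residual degrees of freedom, in 7 comparisons and 1 interaction, and p-values were adjusted by Benjamini-Hochberg within each. The methods' SAM was not run. The fit was tested on simulated data.

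The members and lists were chosen with earlier results of these data known. Members were named where called at 2-fold or more in IRI vs Control, among the 5 largest called rises or falls of another comparison, or where their mean signal ranked first in their role, which picks names and supports no comparison of levels. Wdr16 is on the study's list for Hemin. Bbs10, Crocc and Dync2h1 are on its lists of genes lower in IRI, and Tubb2a and Tubb6 on its list of genes higher in IPC+IRI. Those lists come from the same arrays, so the values here are not independent of them. Dync2h1 and Dync1i2 were chosen after their values were seen. Alternatives were normexp with an offset of 50, no scaling, quantile normalization, the percentile over probes above background, the brightest probe, the mean of log2 over probes, the log2 matrix, no or a strict filter on dim genes, the compared arrays alone, a 2-fold cutoff, the replicate number as a block and each array left out in turn. The number of arrays limits the precision.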

Additional observations from a re-analysis of the deposited data

Results flagged for a closer look

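Of 160 groups of 4 arrays of the named genes, 9 had 1 array far from the other 3 by Dixon's criterion at 95%; chance alone marks about 1 in 20 groups. Dnahc11 lay at -3.318 in Control replicate 3, and Dnaic1 at -1.053 in Hemin replicate 4, above the other 3 arrays, which ended at -1.777. Ift122 lay at 3.561 in Hemin replicate 3. Ift20 lay at 3.606 in Control replicate 2, above the other Control arrays, and at 3.371 in IRI+Hemin replicate 1. Ift74 lay at -1.709 in Control replicate 2. Tekt5 lay at -6.356 in IRI replicate 3, where no IRI array was above background. Tubb2b lay at -1.516 in IRI replicate 3 and Tubb6 at -0.455 in Hemin replicate 2.

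For 3 of 54 genes the change with injury differed between Hemin-treated and untreated mice by the limma test of the difference itself. This share of 5.56% is near the 5.83% of all genes called higher, and the groups of the test span 3 scan days. The differences were 1.652 for Tubb3, 1.392 for Dnaic1 and 1.211 for Tekt4 on the log2 scale. Without each of the 16 arrays in turn these values stayed between 1.413 and 1.82, between 1.255 and 1.589 and between 0.938 and 1.351, and each was called in every case (highest limma adjusted p = 0.00531, 0.0124 and 0.0429). After normexp background correction none of the 3 was called (0.70, 0.75 and 0.36), and without scaling Dnaic1 (1.19) and Tekt4 (1.01) were not.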

How the results depend on the processing

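The counts of called genes higher and lower, in that order, moved by over 1.5 times as follows. A 2-fold cutoff left 7 and 5 in IRI vs Control, 7 and 4 in IPC+IRI vs Control, 7 and 3 in IRI+Hemin vs Control, 2 and 1 in Hemin vs Control, 3 and 1 in IPC+IRI vs IRI, 4 and 1 in IRI+Hemin vs IRI and 5 and 5 in IPC+IRI vs Hemin. Normexp correction left 4, 6, 8 and 7 lower in IRI vs Control, IPC+IRI vs Control, IRI+Hemin vs Control and IPC+IRI vs Hemin, 7 higher in Hemin vs Control, 5 higher in IPC+IRI vs IRI and 0 higher in the interaction. Without scaling, 4, 3 and 1 were lower in IPC+IRI, IRI+Hemin and Hemin vs Control, 31 and 24 higher in Hemin vs Control and IRI+Hemin vs IRI, 0 lower in IPC+IRI vs IRI and in IRI+Hemin vs IRI, 6 higher in IPC+IRI vs Hemin and 1 higher in the interaction. The percentile over probes above background gave 17 lower in IPC+IRI vs Control, 8 higher in Hemin vs Control and 5 lower in IPC+IRI vs IRI, quantile normalization 5 lower in IPC+IRI vs IRI, and the mean of log2 over probes 1 lower there. The log2 matrix gave 7 higher in IRI vs Control, 8 higher in Hemin vs Control and 1 lower in IRI+Hemin vs IRI, and the compared arrays alone 1 lower in the last. The cause was not tested, beyond the offset of normexp, which compresses dim signals.

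With each array left out, the counts higher ran from 11 to 12 in IRI vs Control, 15 to 17 in IPC+IRI vs Control, 15 to 17 in IRI+Hemin vs Control, 8 to 15 in Hemin vs Control, 11 to 14 in IPC+IRI vs IRI, 10 to 16 in IRI+Hemin vs IRI, 10 to 11 in IPC+IRI vs Hemin and 3 to 4 in the interaction, and the counts lower from 15 to 19, 10 to 12, 15 to 17, 3 to 5, 1 to 4, 1 to 3, 14 to 17 and 0 to 1. The counts of 1 lower came in IPC+IRI vs IRI without IRI replicate 1 or 3 and in IRI+Hemin vs IRI without IRI replicate 2 or 3 or IRI+Hemin replicate 2, and that of 1 lower in the interaction without Control replicate 2.

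Of 70 values of named genes, 29 kept direction and call under every alternative. Over 1337 alternative values 1216 did, 113 kept the direction without the call and 8 turned. The turned values were, under the mean of log2 over probes, Tuba3a at -0.031 in IRI vs Control and at 0.23 in IPC+IRI vs IRI and Tubb6 at 0.11 in IPC+IRI vs IRI; under normexp, Tekt1 at -0.15 in IPC+IRI vs IRI, Bbs10 at -0.20 in IRI+Hemin vs IRI and Dnahc12 at 0.027 in IPC+IRI vs Hemin; without scaling, Ift80 at 0.056 in IRI+Hemin vs IRI; and in the log2 matrix, Tuba1c at 0.15 in IRI+Hemin vs IRI. Under 11 alternatives the count of tubulins called higher in IRI vs Control ran from 6 to 9, and ciliary transport had between 3 and 14 lower and none higher. The tubulins counted were not always the same: Tuba1c and Tuba3a lost the call in the log2 matrix, and Tuba3a also with the mean of log2 over probes.

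Replicate numbers did not pair the arrays: over 40 pairs of same-numbered arrays the correlation of deviations ran from -0.38 to 0.21, with 7 above 0.1. The 4 pairs of Control with IRI gave 0.127, 0.052, 0.145 and 0.11, so that not every pair passed 0.1, and there the replicate block gave 10 ciliary transport genes called lower in place of 12. With the replicate block no count moved by over 1.5 times, and of the 70 values 2 lost the call, Tuba3a in IPC+IRI vs IRI (limma adjusted p = 0.0581) and Ift80 in IRI+Hemin vs IRI (limma adjusted p = 0.0758). A random block for the slide, also planned, was not run: no slide holds more than 1 group and no group more than 1 slide.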
